A study of Mus musculus with 17 samples.

Results

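Chemokines and their receptors were followed across 6 populations of stem and progenitor cells sorted from mouse bone marrow. The members were taken by name: every array probe whose gene symbol had the form of a CC, CXC, CX3C or XC chemokine or chemokine receptor, without the platelet genes Pf4 and Ppbp. Where a gene had several probes, the brightest over all arrays stood for it. This gave 52 genes of the 28090 on the array, 17 receptors and 35 ligands, which are described apart.

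The cells came from female C57Bl/6 mice aged 6 to 8 weeks, with the marrow of at least 10 animals pooled for each replicate, depleted of cells bearing B220, CD3, GR-1 or Ter119 and enriched for ckit. In a first sort, LIN-ckit+Sca1+ cells were divided into long-term hematopoietic stem cells (LT-HSC, CD34-FLT3-, n = 2 arrays), short-term hematopoietic stem cells (ST-HSC, CD34+FLT3-, n = 3) and multipotent progenitors (MPP, CD34+FLT3+, n = 3), together called the HSC subsets. In a separate sort, LIN-ckit+Sca1- cells were divided into common myeloid progenitors (CMP, CD34mid FcRg mid, n = 3), granulocyte-monocyte progenitors (GMP, CD34+FcRg+, n = 3) and megakaryocyte-erythroid progenitors (MEP, CD34-FcRg-, n = 3). No population was treated, and 1 of the 2 LT-HSC arrays carries a label that names it a pool of numbers 2 and 3.

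Chemokines are small secreted proteins, sorted into families by the spacing of their first cysteines, and they steer moving cells by binding receptors of the G protein-coupled type that signal mainly through Gi. In the marrow, Cxcl12 made by stromal cells holds stem and progenitor cells in place through Cxcr4, Ccr2 lets monocytes leave, and Ccr7 and Ccr9 guide progenitors with lymphoid potential to the thymus. Inflammatory ligands such as Ccl3, Ccl4 and Ccl5 are made by many blood cells themselves, and several ligands share a receptor.

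All levels below are log2 normalized array intensities, and a difference of 1 is a 2-fold change. A level describes 1 probe, so levels of different genes were not ranked against each other. A spot counted as measured where the scanner software called it well above background. Two-sided tests were limma fits over all 28090 genes with Benjamini-Hochberg adjustment at 0.05, and the 4 comparisons were the mean of the HSC subsets against the mean of the myeloid populations, and MPP, GMP and MEP each against the mean of the other 5 populations. Errors of differences are SE and errors of means are SD. Array values are given population by population, from the highest mean to the lowest.

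The sorted labels fitted their defining genes at the RNA level, with exceptions. Kit was between 10.57 and 11.76 in every population, Flt3 was highest in MPP (9.93), Fcgr3 in GMP (13.61), Gata1 and Klf1 in MEP (12.08 and 12.91), and Cd34 lowest in MEP (9.80). Cd34 was 14.96 in LT-HSC although that gate is CD34-, Flt3 was 8.24 there although that gate is FLT3- and 9.38 in CMP, and Ly6a, which encodes Sca1, was 9.71 in GMP although that gate is Sca1-. The arrays were scanned in 3 runs: both LT-HSC arrays and the numbered ST-HSC and MPP arrays in 1, the numbered myeloid arrays in another, and the unnumbered array of every population but LT-HSC in the last. The share of spots well above background ran from 41.4% to 70.1%, and the unnumbered LT-HSC array was the dimmest, with a 75th percentile of 53.1 against at least 243 on the other arrays. As these are bulk samples, fewer cells of a type and less RNA per cell cannot be told apart.

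Of the 52 members, 31 were well above background on every array of at least 1 population, 12 of the 17 receptors and 19 of the 35 ligands, in all 59.6% against 59.8% of all genes. On all 17 arrays this held for 23.1% of the members against 39.1% of all genes. The receptors measured throughout were Ccr2, Cxcr4 and Xcr1, and the ligands were Ccl3, Ccl4, Ccl5, Ccl6, Ccl9, Ccl19, Ccl25, Ccl27 and Cxcl10. No receptor was below background everywhere, whereas 8 ligands were not well above background on any array: Ccl1, Ccl11, Ccl20, Ccl22, Cxcl3, Cxcl11, Cxcl13 and Cxcl17. They were 22.9% of the ligands and 15.4% of the members, where 18.8% of all genes were on no array. The number of receptors measured on every array of a population fell from 11 for ST-HSC and MPP through 10 for CMP and 9 for LT-HSC to 6 for GMP and MEP. That of ligands was 19 for ST-HSC, 18 for MPP, 14 for LT-HSC, CMP and GMP alike, and 11 for MEP. MEP had the fewest ligands and, with GMP, the fewest receptors, while over all genes the share measured was lowest in LT-HSC (43.7%), with 45.8% in MEP, 48.3% in GMP and 57.2% in MPP.

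Among the members, 28 of 52 differed over the 6 populations by the F-test (53.8%, against 40.2% of all genes tested), 11 receptors and 17 ligands. At the study's stricter limit, an unadjusted F-test p under 1e-06, the members were 9, against 6.08% of all genes: the receptors Ccr2, Ccr9 and Cxcr3, and the ligands Ccl3, Ccl4, Ccl5, Ccl9, Ccl24 and Cxcl9. In MPP, 4 receptors and 8 ligands were higher than in the other populations, 23.1% of members against 10.2% of all genes, and 1 ligand, Ccl17, was lower, against 6.72% of all genes (13 members in either direction, against 16.9%). Without the MPP array of replicate 2 the members called in MPP fell from 13 to 7, while the genes called fell to 2644. Among those higher in MPP, Ccr7, Ccl9, Cx3cl1, Cxcl2 and Cxcl16 each lost their call when at least 1 single array was left out. In GMP the direction turned: 2 receptors and 3 ligands were higher, against 9.93% of all genes, and 6 receptors and 6 ligands were lower, 23.1% of members against 10.1% (17 members in either direction, against 20.0%). In MEP, 5 receptors and 11 ligands were lower, 30.8% of members against 15.1% of all genes, and only Ccr6 and Cxcl17 were higher, against 15.8% (18 members in either direction, against 30.9%). Cxcl17 was not well above background on any array. The median difference of the members was 0.12 in MPP, -0.30 in GMP and -0.29 in MEP, where the medians of all genes were -0.03, -0.05 and 0.00. These medians shrank with normexp background correction (0.03, -0.09 and -0.08) and in the authors' normalized table (0.05, -0.11 and -0.13), and that of MEP was -0.05 without LT-HSC.

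**Figure D1:**
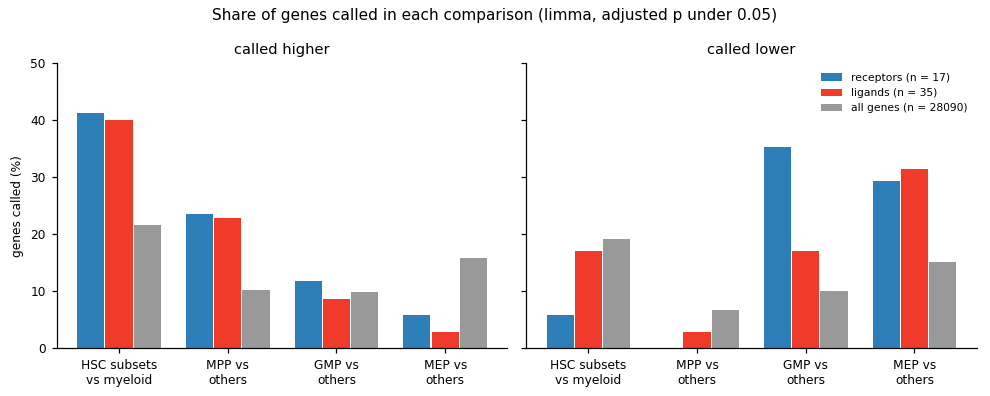
Bars give the percentage of receptors (n = 17), ligands (n = 35) and all genes (n = 28090) called higher or lower in each of the 4 comparisons (limma, Benjamini-Hochberg 0.05). In MEP, 5 receptors and 11 ligands were lower, while only 1 receptor and 1 ligand were higher.

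Cxcr3 and Ccr9 were the receptors with all MPP arrays above the rest, followed by LT-HSC. Cxcr3, the receptor for the interferon-induced ligands Cxcl9, Cxcl10 and Cxcl11, was 9.34, 9.70 and 10.02 for MPP, 8.32 and 8.98 for LT-HSC, 6.90, 7.08 and 7.29 for ST-HSC, 6.49, 6.72 and 7.26 for CMP, 5.71, 5.91 and 6.45 for GMP, and 4.72, 5.16 and 5.80 for MEP. All 3 MPP arrays lay above the other 14, and MPP exceeded the mean of the others by 2.92 ± 0.24 (adjusted p = 5.38e-06). LT-HSC came next, and the step from MPP to LT-HSC, 2.05-fold, did not pass the test (adjusted p = 0.0911), while LT-HSC stood 2.95-fold above ST-HSC (adjusted p = 0.0250). MEP was lowest, -2.43 ± 0.24 from the others (adjusted p = 4.37e-06). Ccr9, the receptor for the thymic and gut ligand Ccl25, was 8.48, 8.60 and 9.27 for MPP, 8.07 and 8.10 for LT-HSC, 6.17, 6.27 and 6.29 for MEP, 5.54, 5.54 and 6.46 for CMP, 5.38, 5.56 and 5.79 for ST-HSC, and 3.91, 4.54 and 4.64 for GMP. Among the HSC subsets it dipped in ST-HSC, and MPP was 9.22-fold above ST-HSC (adjusted p = 6.54e-05), while the step from LT-HSC to MPP, 1.62-fold, did not pass (adjusted p = 0.203). The MPP arrays were again all above the rest (difference 2.76 ± 0.22, adjusted p = 3.52e-06), and the GMP arrays were all below the rest (-2.54 ± 0.22, adjusted p = 3.69e-06).

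Ccr7 was also highest in MPP, with less certainty. Ccr7, the receptor for Ccl19 and Ccl21, was 6.35, 6.43 and 8.22 for MPP, 6.40, 6.73 and 7.13 for CMP, 5.81 and 7.0 for LT-HSC, 4.55, 5.09 and 5.50 for MEP, 2.41, 2.47 and 5.58 for ST-HSC, and 2.59, 3.06 and 3.63 for GMP. MPP, CMP and LT-HSC were high, MPP and CMP not apart (1.18-fold, adjusted p = 0.897), while ST-HSC and GMP were low. On the GMP arrays Ccr7 was nowhere well above background, and MPP was at least 6.76-fold higher (adjusted p = 0.00205). Such a bound sets the mean of the brighter population against the lowest signal that was still well above background on each array of the dim one, or that array's own value where higher. The difference of MPP from the others, 2.04 ± 0.59 (adjusted p = 0.0302), was lost when any 1 of the 3 MPP arrays was left out (adjusted p from 0.0542 to 0.141).

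Ccr2 and Cx3cr1, the receptors that mark monocytes and their precursors, were highest in CMP and GMP. Ccr2, the receptor for Ccl2, was 9.98, 10.42 and 10.46 for GMP, 9.70, 10.12 and 10.90 for CMP, 8.86, 9.13 and 9.57 for MPP, 8.33, 8.91 and 9.15 for ST-HSC, 7.66 and 8.16 for LT-HSC, and 5.40, 5.82 and 6.30 for MEP. It was measured on every array, CMP (10.24 ± 0.61) and GMP (10.29 ± 0.27) had nearly the same mean, and the HSC subsets lay between these and MEP. GMP was 21.8-fold above MEP (adjusted p = 6.57e-07), with all 3 MEP arrays below the other 14. GMP differed from the mean of the others by 1.89 ± 0.26 (adjusted p = 0.000202) and MEP by -3.45 ± 0.26 (adjusted p = 3.53e-07). Cx3cr1, the receptor for the membrane-bound ligand Cx3cl1, was 7.77, 8.67 and 9.05 for CMP, 7.02, 7.83 and 8.61 for GMP, 4.89, 5.33 and 6.05 for ST-HSC, 4.69, 4.90 and 4.96 for MPP, 1.78, 4.71 and 4.75 for MEP, and 1.71 and 3.36 for LT-HSC. The 6 CMP and GMP arrays lay above the other 11. CMP and GMP differed by 1.60-fold, which did not pass the test (adjusted p = 0.945), while CMP was 8.41-fold above ST-HSC (adjusted p = 0.0207). In LT-HSC and MEP no array was well above background, and CMP was at least 12.3-fold and at least 13.4-fold higher than these (adjusted p = 0.000376 and 0.000334). The lower level of MEP than the mean of the others was lost without the unnumbered MEP array (adjusted p = 0.101). A further Cx3cr1 probe, dimmer and with a small range, was highest in GMP rather than CMP.

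Cxcr2, the receptor for neutrophil-attracting CXC ligands, is on the array under its older name Il8rb, which the naming rule does not take in. It was 6.65, 6.71 and 6.93 for GMP, 5.68, 5.75 and 6.73 for ST-HSC, 5.09, 5.97 and 6.67 for CMP, 4.16, 4.75 and 5.34 for MEP, 4.18 and 4.79 for LT-HSC, and 3.22, 3.65 and 5.16 for MPP. GMP exceeded the mean of the others by 1.72 ± 0.40 (adjusted p = 0.00764) and MPP differed from it by -1.59 ± 0.40 (adjusted p = 0.0152), so that Il8rb and the MPP-high receptors Cxcr3 and Ccr9 ran in opposite directions in these populations. Il8ra, the older name of Cxcr1, was not well above background on any array.

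Cxcr6, Xcr1 and Cxcr5 were highest in LT-HSC. Cxcr6, the receptor for Cxcl16 on T, NKT and innate lymphoid cells, was 6.69 and 7.91 for LT-HSC, 4.82, 5.0 and 5.23 for MEP, 3.73, 4.04 and 5.93 for ST-HSC, 2.43, 3.41 and 3.90 for MPP, 1.63, 2.38 and 3.59 for CMP, and 1.61, 1.62 and 1.91 for GMP. Both LT-HSC arrays were above the other 15, MEP came next, and LT-HSC was 4.86-fold above MEP (adjusted p = 0.0204). No CMP or GMP array was well above background, and LT-HSC was at least 10.7-fold and at least 8.31-fold higher (adjusted p = 0.000465 and 5.78e-05). Xcr1, known from cross-presenting dendritic cells and a receptor for Xcl1, was 7.83 and 9.24 for LT-HSC, 6.35, 7.17 and 7.34 for MPP, 5.65, 7.01 and 7.02 for ST-HSC, 5.85, 5.91 and 5.96 for MEP, 5.80, 5.87 and 5.99 for GMP, and 5.67, 5.70 and 6.07 for CMP. LT-HSC was 6.61-fold above CMP (adjusted p = 0.00129), and the 3 myeloid populations were alike, from 5.81 to 5.91 in the mean. In the scanning run of LT-HSC, the ST-HSC and MPP arrays were 7.01 to 7.34, below both LT-HSC arrays. The unnumbered ST-HSC and MPP arrays, from another run, were 5.65 and 6.35. No CMP array was scanned with LT-HSC, so population and run cannot be told apart in that fold. Another Xcr1 probe, measured on 5 arrays only, was highest in MPP, so the place of LT-HSC rests on the brighter probe. Cxcr5, the receptor for Cxcl13 on B and follicular helper T cells, was 6.26 and 6.52 for LT-HSC, 4.52, 6.49 and 6.63 for MPP, 5.02, 5.03 and 6.44 for MEP, 3.97, 4.55 and 5.68 for ST-HSC, 3.42, 4.76 and 4.79 for CMP, and 2.14, 2.18 and 2.35 for GMP. LT-HSC and MPP overlapped (1.42-fold, adjusted p = 0.726). In GMP it was nowhere well above background, and LT-HSC was at least 4.42-fold higher (adjusted p = 0.000611). The GMP arrays lay below the other 14, and the remaining populations together were at least 2.17-fold higher than GMP (adjusted p = 0.000370).

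Ccr6 was the receptor highest in MEP, and Cxcr4 varied little outside MEP. Ccr6, the receptor for Ccl20, was 6.87, 6.96 and 7.36 for MEP, 6.41 and 6.55 for LT-HSC, 4.48, 5.71 and 5.81 for MPP, 5.03, 5.08 and 5.43 for CMP, 3.57, 4.57 and 5.20 for ST-HSC, and 3.47, 4.05 and 4.28 for GMP. The 3 MEP arrays lay above the other 14, 1.99 ± 0.32 over the mean of the others (adjusted p = 0.000278). MEP was 6.13-fold above ST-HSC (adjusted p = 0.000272) but only 1.50-fold above LT-HSC, which did not pass the test (adjusted p = 0.385). Cxcr4, the receptor for Cxcl12, was 9.66, 9.79 and 10.49 for GMP, 9.32 and 10.45 for LT-HSC, 8.85, 10.18 and 10.44 for MPP, 8.71, 9.71 and 10.35 for ST-HSC, 9.03, 9.21 and 10.09 for CMP, and 7.76, 7.82 and 8.62 for MEP. The means of the populations other than MEP lay between 9.44 and 9.98, within the spread of their arrays, and the F-test did not pass (adjusted p = 0.0609). MEP differed from the mean of the others by -1.68 ± 0.40 (adjusted p = 0.00556), and GMP stood 3.77-fold above it (adjusted p = 0.0173). Of the other receptors, Ccr3, the eotaxin receptor, was measured on 15 arrays with means between 4.92 and 6.27. Ccr1, Ccr4, Ccr8, Ccr10 and the scavenging receptor Cxcr7 were well above background on between 1 and 4 arrays each.

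**Figure D2:**
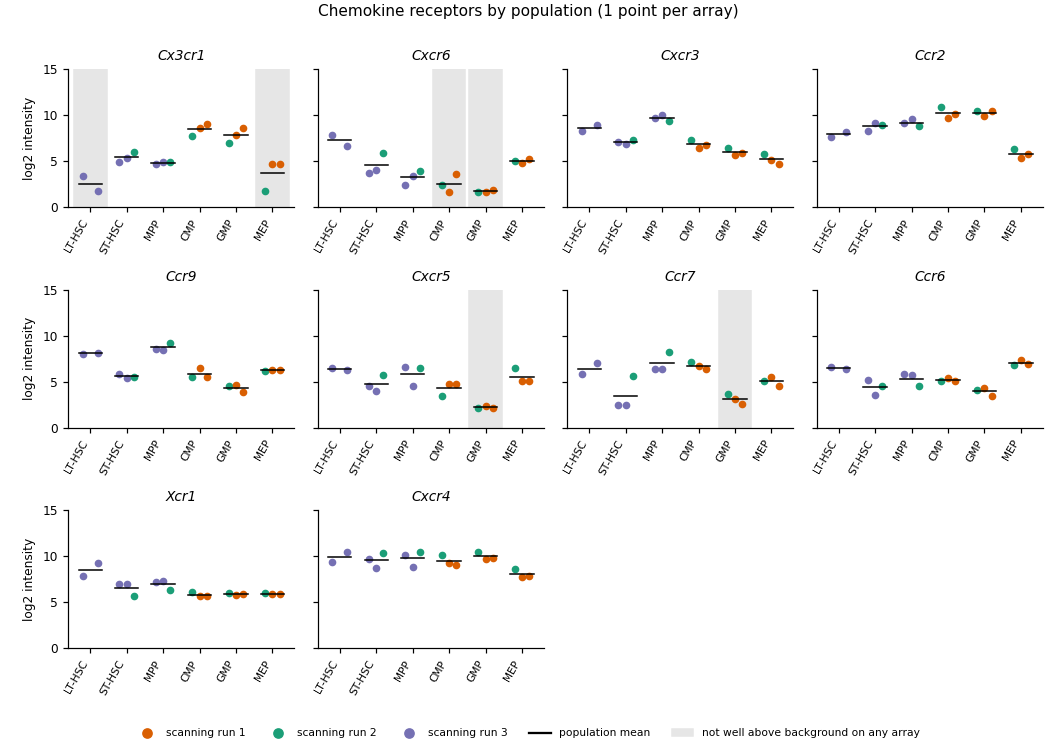
Each panel is 1 receptor, each point 1 array (log2 normalized intensity), coloured by scanning run, and each line a population mean. Populations in which no array was well above background are grey. Cxcr3 and Ccr9 peaked in MPP, Ccr2 and Cx3cr1 in CMP and GMP, Cxcr6 and Xcr1 in LT-HSC and Ccr6 in MEP.

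Among the ligands, Ccl3 and Ccl4, which encode the inflammatory proteins MIP-1 alpha and MIP-1 beta, were highest in MPP and lowest in MEP. Ccl4 was 13.80, 14.03 and 14.15 for MPP, 11.85, 12.22 and 12.90 for CMP, 11.83, 12.13 and 12.50 for ST-HSC, 11.14 and 11.74 for LT-HSC, 10.03, 10.43 and 10.97 for GMP, and 6.60, 6.91 and 8.56 for MEP. MPP was above every other array, CMP and ST-HSC did not differ beyond their spread, and MPP stood 99.4-fold above MEP (adjusted p = 1.38e-07). Ccl3 was 13.24, 13.29 and 13.36 for MPP, 11.33, 11.70 and 12.51 for CMP, 11.13, 11.42 and 11.73 for ST-HSC, 10.37, 10.64 and 11.37 for GMP, 10.28 and 10.63 for LT-HSC, and 5.61, 6.53 and 8.33 for MEP. Its 3 highest populations were those of Ccl4, MPP, CMP and ST-HSC, and MPP was 89.0-fold above MEP (adjusted p = 7.80e-07). The step from CMP to MPP passed the test for Ccl4 (adjusted p = 0.0282) but not for Ccl3 (adjusted p = 0.0945). Against the mean of the others, MPP was higher by 3.24 ± 0.35 for Ccl4 and 3.03 ± 0.42 for Ccl3 (adjusted p = 3.63e-05 and 0.000243). MEP differed by -4.72 ± 0.35 and -4.74 ± 0.42 (adjusted p = 2.69e-07 and 1.28e-06). Within MEP the unnumbered array was highest for both genes, at 8.56 for Ccl4 and 8.33 for Ccl3.

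Cxcl9 and Cxcl2 were also highest in MPP, and Cxcl16 in MPP and LT-HSC. Cxcl9, an interferon-induced ligand of Cxcr3, was 8.83, 9.58 and 9.72 for MPP, 6.23, 6.54 and 6.69 for ST-HSC, 5.98 and 6.79 for LT-HSC, 4.17, 5.52 and 5.75 for GMP, 2.90, 3.40 and 3.86 for CMP, and 1.60, 1.85 and 3.58 for MEP. The MPP arrays were all above the rest, the 8 HSC subset arrays were all above the 9 myeloid arrays, and MPP was 7.43-fold above ST-HSC (adjusted p = 0.00769). No MEP array was well above background, and MPP was at least 25.4-fold higher there (adjusted p = 3.05e-07). Cxcl2, which attracts neutrophils through Cxcr2, was 5.92, 6.60 and 6.83 for MPP, 5.10, 6.22 and 6.49 for CMP, 5.08, 5.71 and 6.03 for ST-HSC, 5.03, 5.09 and 5.56 for GMP, 4.52 and 5.15 for LT-HSC, and 3.24, 3.68 and 4.13 for MEP. MPP and CMP overlapped (1.43-fold, adjusted p = 0.426). MEP was not well above background, and MPP was at least 3.34-fold higher (adjusted p = 9.19e-05). Cxcl16, the membrane-bound ligand of Cxcr6, was 7.14 and 9.72 for LT-HSC, 7.97, 8.25 and 8.96 for MPP, 6.71, 7.33 and 7.37 for ST-HSC, 5.90, 6.86 and 7.01 for CMP, 5.73, 6.02 and 6.29 for GMP, and 4.53, 4.61 and 5.29 for MEP. MPP and LT-HSC were level, 8.39 and 8.43 in the mean, and the 3 MEP arrays lay below the other 14 (difference -2.50 ± 0.42, adjusted p = 0.000390). The LT-HSC mean rests on 2 arrays far apart, and another Cxcl16 probe, measured on 12 arrays, was highest in MPP (6.94, against 5.76 in LT-HSC) and lowest in GMP (3.80), not MEP.

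Ccl9 and Ccl24 were highest in GMP, and Ccl6 was called higher there with less certainty. Ccl9 and Ccl6, relatives of Ccl3 that act through Ccr1, lie next to it in the genome. Ccl9 was 12.48, 12.60 and 12.70 for GMP, 11.67, 12.11 and 12.50 for CMP, 11.60, 11.62 and 11.71 for ST-HSC, 11.16, 11.28 and 11.29 for MPP, 9.27 and 9.86 for LT-HSC, and 6.76, 7.22 and 7.42 for MEP. GMP was highest but overlapped with CMP (1.41-fold, adjusted p = 0.340), the MEP arrays were far below all others, and GMP was 44.1-fold above MEP (adjusted p = 1.56e-08). The difference of MEP from the others was -4.30 ± 0.17 (adjusted p = 3.58e-09), and that of GMP 2.26 ± 0.17 (adjusted p = 1.57e-06). Ccl6 was 9.50, 10.16 and 10.96 for ST-HSC, 9.46, 9.59 and 10.19 for GMP, 9.28, 9.40 and 9.66 for MPP, 8.90, 9.49 and 9.52 for CMP, 8.29 and 9.01 for LT-HSC, and 6.55, 6.94 and 7.22 for MEP. ST-HSC was highest in the mean, but ST-HSC, GMP, MPP and CMP did not differ from their neighbours in this order, and ST-HSC was 9.86-fold above MEP (adjusted p = 9.84e-06). The difference of GMP from the others, 0.84 ± 0.27 (adjusted p = 0.0439), was lost when any 1 of 11 arrays was left out (adjusted p from 0.053 to 0.217). Ccl24, eotaxin-2, which attracts eosinophils through Ccr3, was 6.53, 7.11 and 7.49 for GMP, 3.73, 4.08 and 5.46 for CMP, 3.95, 4.52 and 4.74 for ST-HSC, 3.83, 4.12 and 4.13 for MPP, 1.59 and 2.98 for LT-HSC, and 1.60, 1.66 and 1.71 for MEP. The GMP arrays lay above all others, 6.24-fold over ST-HSC (adjusted p = 0.00107). LT-HSC and MEP were not well above background, and GMP was at least 4.49-fold and at least 5.03-fold higher (adjusted p = 1.51e-05 and 1.13e-06).

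The probes of Ccl5, Ccl9, Ccl6, Ccl3 and Ccl4 lie within 500000 bases on chromosome 11 (mm9, from 83339296 to 83478111). Of these 5 neighbours, 4 were lowest in MEP, while Ccl5, at the end of the stretch, was lowest in GMP and highest in LT-HSC. MEP differed from the others by between -4.74 ± 0.42 and -2.57 ± 0.27 for Ccl3, Ccl4, Ccl9 and Ccl6, and for Ccl5 MEP was 5.11-fold above GMP (adjusted p = 0.000103). The receptor genes Ccr9, Cxcr6, Xcr1, Ccr1, Ccr3 and Ccr2 likewise share a stretch of chromosome 9, yet the highest population was MPP for Ccr9, LT-HSC for Cxcr6 and Xcr1, ST-HSC for Ccr3 and GMP for Ccr2. Neighbours thus had different patterns in both stretches. Whether probes of close relatives, such as Ccl6 and Ccl9, also bind each other's RNA was not tested.

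**Figure D3:**
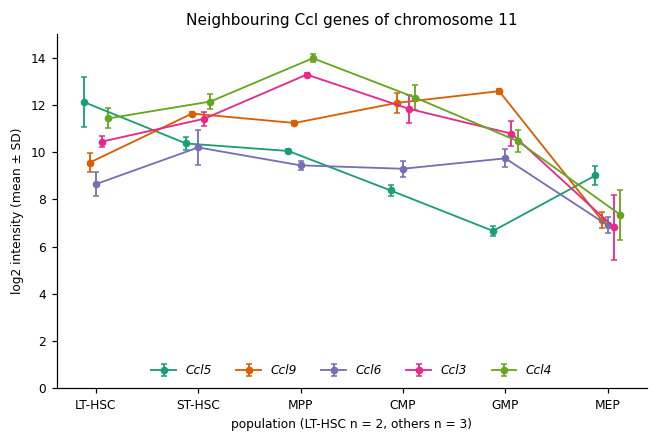
Lines give the population mean of the log2 normalized intensity of Ccl5, Ccl9, Ccl6, Ccl3 and Ccl4, which are neighbours on chromosome 11, and bars give the SD over arrays (n = 2 in LT-HSC, 3 elsewhere). Ccl9, Ccl6, Ccl3 and Ccl4 dropped in MEP, and Ccl5 was lowest in GMP.

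The promoters of Ccl3, Ccl6 and Ccl9 are shown because these neighbours were all lowest in MEP, and those of Cxcl9 and its receptor Cxcr3 because both peaked in MPP. The table used held no entry for Ccl4. Each sequence reads 5′ to 3′ along the gene, from 250 bases before the start to 50 after it, from RefSeq on GRCm38.p6, minus strand of the chromosome. Capitals mark GGAAGT or its reverse complement ACTTCC, the core bound by ETS factors such as PU.1. The windows are chr11:83649329-83649628 for Ccl3, chr11:83593038-83593337 for Ccl6, chr11:83578587-83578886 for Ccl9, chr5:92328030-92328329 for Cxcl9 and chrX:101734098-101734397 for Cxcr3.
Ccl3: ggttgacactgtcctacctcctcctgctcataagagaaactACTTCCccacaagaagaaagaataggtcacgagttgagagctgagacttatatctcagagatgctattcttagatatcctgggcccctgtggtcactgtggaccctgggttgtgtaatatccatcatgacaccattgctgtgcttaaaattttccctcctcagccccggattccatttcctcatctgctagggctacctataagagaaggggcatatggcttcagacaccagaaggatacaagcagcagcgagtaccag
Ccl6: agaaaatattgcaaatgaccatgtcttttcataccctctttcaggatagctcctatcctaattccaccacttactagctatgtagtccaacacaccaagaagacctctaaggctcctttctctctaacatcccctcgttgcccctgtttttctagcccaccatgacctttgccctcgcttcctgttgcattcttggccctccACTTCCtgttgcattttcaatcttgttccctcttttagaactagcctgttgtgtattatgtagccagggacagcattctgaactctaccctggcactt
Ccl9: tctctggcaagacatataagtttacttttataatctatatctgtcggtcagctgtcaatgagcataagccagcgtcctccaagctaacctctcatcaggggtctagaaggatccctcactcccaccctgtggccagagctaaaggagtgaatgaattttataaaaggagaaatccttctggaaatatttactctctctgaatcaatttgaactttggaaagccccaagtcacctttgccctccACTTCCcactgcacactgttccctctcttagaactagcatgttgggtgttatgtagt
Cxcl9: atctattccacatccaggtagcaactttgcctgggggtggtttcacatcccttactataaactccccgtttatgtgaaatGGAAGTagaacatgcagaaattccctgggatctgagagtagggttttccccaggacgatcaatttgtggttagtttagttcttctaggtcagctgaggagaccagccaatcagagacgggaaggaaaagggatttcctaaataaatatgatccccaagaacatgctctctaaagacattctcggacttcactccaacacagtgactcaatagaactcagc
Cxcr3: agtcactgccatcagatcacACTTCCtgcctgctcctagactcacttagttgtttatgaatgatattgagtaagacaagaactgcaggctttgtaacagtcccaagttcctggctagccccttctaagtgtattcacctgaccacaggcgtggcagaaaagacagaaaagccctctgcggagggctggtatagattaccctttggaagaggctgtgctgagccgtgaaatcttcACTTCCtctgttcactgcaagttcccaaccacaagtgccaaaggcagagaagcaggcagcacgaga
The capitals start at -209 in Ccl3, -48 in Ccl6, -7 in Ccl9, -170 in Cxcl9, and -230 and -16 in Cxcr3, counted from the start. Of the 34 members with a promoter in the table, 15 held this core on either strand (44.1%), against 23.8% of 32851 promoters. Every promoter shown held it, but those of Ccr2 and Cxcl2, which were also lowest in MEP, did not. Its holders also included Ccl1, Ccl20 and Ccl22, which were not well above background on any array. Whether the core goes with a pattern over the populations was not tested. A GATA motif, AGATAA on either strand, was in 6 of the 34 (17.6%, against 11.2%), and an AP-1 motif, TGANTCA, which is its own reverse complement, was in 6 (17.6%, against 7.81%). An NF-kB motif, GGG and TTTCC with any 2 bases between them, on either strand, was also in 6 (17.6%, against 1.63%), Ccl9, Ccl20, Ccr3, Cxcl1, Cxcl2 and Cxcl3, and starts at -35 in the Ccl9 window shown. The 4 motifs can share letters only at their ends. Ccl6 and Ccl9 were the most alike of the promoters shown, with 41 of 60 bases identical in their best window without gaps, against 28 to 31 for the other pairs. These matches describe letters in a window, and no binding was measured.

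Cx3cl1, Ccl5, Ccl19, Xcl1 and Cxcl12 were highest in LT-HSC. Cx3cl1, fractalkine, a membrane-bound ligand that also holds cells to one another, was 10.88 and 12.93 for LT-HSC, 8.40, 10.44 and 10.70 for MPP, 8.65, 10.11 and 10.61 for ST-HSC, 6.82, 8.01 and 8.81 for CMP, 5.23, 6.05 and 6.45 for MEP, and 3.92, 4.60 and 5.10 for GMP. The LT-HSC arrays were above the rest, but the steps to MPP (4.16-fold, adjusted p = 0.164) and ST-HSC (4.34-fold, adjusted p = 0.201) did not pass the test. LT-HSC was 63.6-fold above MEP (adjusted p = 0.000143), and the GMP arrays were all below the rest (-4.53 ± 0.59, adjusted p = 0.000116). Another Cx3cl1 probe, measured on only 5 arrays, had its highest mean in CMP. Ccl5, RANTES, a ligand of Ccr1 and Ccr3 known from T and NK cells, was 11.39 and 12.89 for LT-HSC, 10.10, 10.35 and 10.68 for ST-HSC, 10.01, 10.01 and 10.15 for MPP, 8.77, 8.81 and 9.48 for MEP, 8.17, 8.37 and 8.61 for CMP, and 6.44, 6.77 and 6.78 for GMP. It was measured on every array, LT-HSC was 3.40-fold above ST-HSC (adjusted p = 0.0146) and 44.5-fold above GMP (adjusted p = 4.25e-07), and the other Ccl5 probe was also highest in LT-HSC and lowest in GMP. Xcl1, lymphotactin, was 6.51 and 6.71 for LT-HSC, 2.80, 5.41 and 5.97 for MPP, 4.69, 4.73 and 4.73 for MEP, 3.26, 4.53 and 5.56 for ST-HSC, 3.16, 4.19 and 4.33 for CMP, and 1.95, 2.25 and 3.49 for GMP. The step from MPP to LT-HSC did not pass the test (3.69-fold, adjusted p = 0.198). It was not well above background in GMP, where LT-HSC was at least 5.15-fold higher (adjusted p = 0.00302).

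Ccl19, a Ccr7 ligand of lymphoid stroma, was 9.93 and 11.16 for LT-HSC, 8.99, 9.02 and 9.11 for ST-HSC, 8.26, 8.44 and 8.73 for MPP, 6.83, 7.78 and 9.80 for MEP, 7.10, 7.49 and 7.68 for CMP, and 6.37, 7.06 and 7.15 for GMP. LT-HSC was not apart from ST-HSC by the test (2.83-fold, adjusted p = 0.228) but was 12.8-fold above GMP (adjusted p = 0.000893). Near-identical copies of Ccl19, Ccl21 and Ccl27 exist in the mouse genome, so this signal may belong to more than 1 gene, and another Ccl19 probe was lowest in MEP, not GMP. Cxcl12, the retention signal of the marrow niche, was 5.53 and 6.55 for LT-HSC, 4.31, 4.88 and 6.44 for MEP, 4.63, 5.33 and 5.33 for ST-HSC, 4.92, 4.93 and 5.02 for MPP, 3.64, 4.31 and 4.88 for CMP, and 1.66, 2.97 and 3.61 for GMP. LT-HSC and MEP, the next, differed by 0.83 ± 0.63 (adjusted p = 0.369). It was measured on 11 of 17 arrays but on none of GMP, where LT-HSC was at least 3.47-fold higher (adjusted p = 0.00194). Ccl2, the monocyte attractant that binds Ccr2, was 6.83, 7.22 and 7.97 for ST-HSC, 5.03, 5.95 and 6.01 for GMP, 4.80, 5.53 and 5.71 for CMP, 5.05 and 5.53 for LT-HSC, 4.84, 4.96 and 5.90 for MPP, and 2.91, 3.35 and 3.66 for MEP. The ST-HSC arrays were above the rest, 3.20-fold over GMP (adjusted p = 0.00929) and at least 6.17-fold over MEP, where no array was well above background (adjusted p = 4.89e-06). For Cxcr6, Xcr1, Cx3cl1, Ccl5, Xcl1 and Ccl19 both LT-HSC arrays, the dim unnumbered one and the pool, lay above the other 15, whereas for Cxcr5 and Cxcl12 they overlapped with other arrays.

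Of the ligands not yet given, Cxcl10, another ligand of Cxcr3, was measured on all 17 arrays, from 8.82 ± 0.29 in GMP to 10.67 ± 0.53 in LT-HSC. That pair differed 3.61-fold (adjusted p = 0.0410), whereas the F-test over the populations gave an adjusted p of 0.130. Ccl25 and Ccl27 were measured on all 17 arrays with narrower ranges of the population means, from 8.38 to 9.03 and 7.58 to 8.50. Ccl17, a ligand of Ccr4, was measured on 16 arrays and was highest in CMP (7.23 ± 0.09). Cxcl1 was measured on 5 arrays. Ccl7, Ccl8, Ccl12, Ccl21b, Ccl28, Cxcl5, Cxcl14 and Cxcl15 were measured on between 1 and 4.

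**Figure D4:**
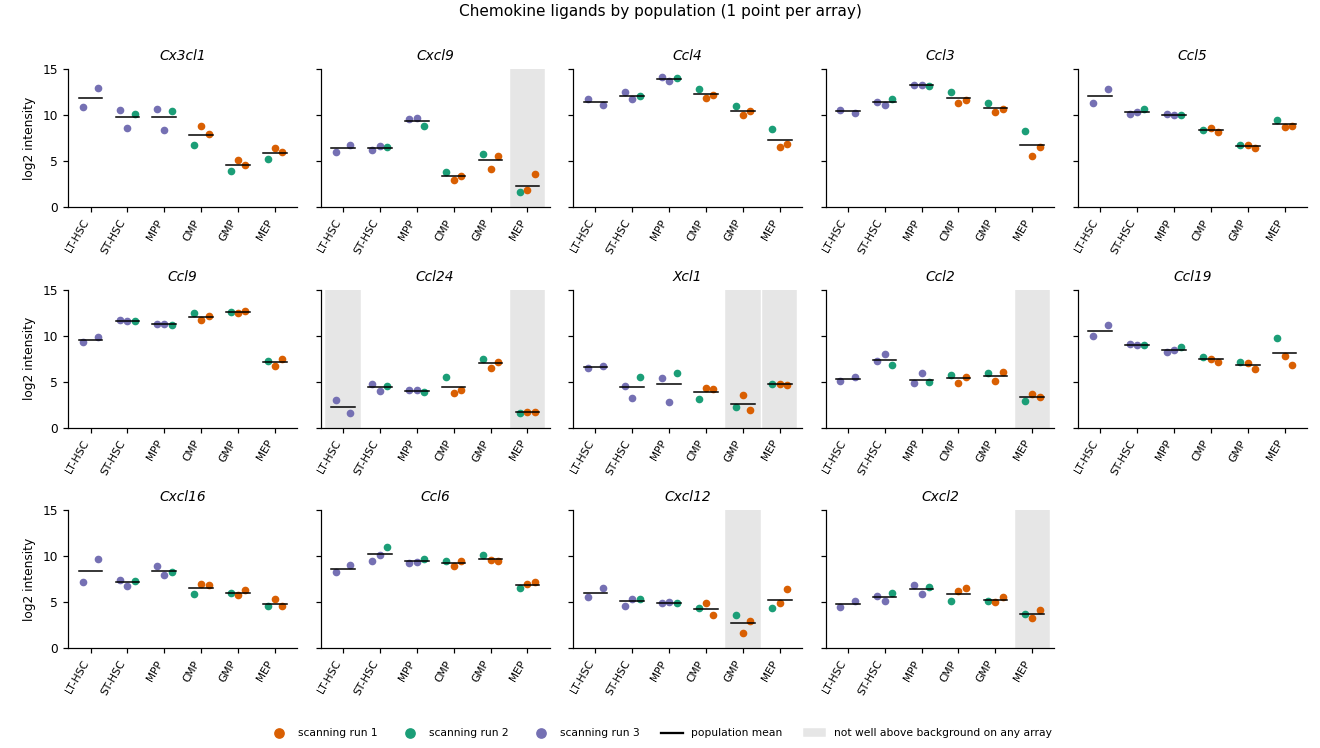
Each panel is 1 ligand, each point 1 array (log2 normalized intensity), coloured by scanning run, and each line a population mean. Populations in which no array was well above background are grey. Ccl3, Ccl4 and Cxcl9 peaked in MPP, Ccl9 and Ccl24 in GMP, and Ccl5, Cx3cl1 and Xcl1 in LT-HSC.

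Receptors and their ligands were set side by side. Cxcr3 and Cxcl9 were both highest in MPP and both lowest in MEP, whereas Cxcl10, which also binds Cxcr3, was highest in LT-HSC and lowest in GMP. Xcr1 and Xcl1 were both highest in LT-HSC, as was Cxcr6, whose ligand Cxcl16 was level in LT-HSC and MPP by the brighter probe and highest in MPP by the other. Other pairs parted: Cx3cr1 was highest in CMP and not well above background in LT-HSC, where Cx3cl1 was highest, and Ccr2 was highest in GMP while Ccl2 was highest in ST-HSC. Ccr6 and Cxcr5 were measured on 15 and 12 arrays, whereas their ligands Ccl20 and Cxcl13 were on none. These are orders of population means over 6 populations, given without a test.

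Markers of mature cells were read on the same arrays. The depletion of cells bearing B220, CD3, GR-1 or Ter119 and the LIN- gate are meant to remove B cells, T cells, granulocytes and red cell precursors. The 12 T and NK cell markers were highest in LT-HSC, with array means of 6.80 to 6.87, and lowest in GMP, with 4.45 to 4.82. Of the 12, 6 were well above background on every LT-HSC array and 3 on every GMP array, and 2 and 7 were on none. Gzma, granzyme A, was 6.83 in LT-HSC and 2.36 in GMP, Cd3d was 6.71 and 2.88, and Ncr1 was not well above background in either. LT-HSC highest and GMP lowest were also the extremes of Ccl5, Xcl1 and Cxcr6. They were equally those of Cx3cl1, Ccl19, Cxcl10, Cxcl12 and Cxcr5 by the probes used, so they were not particular to genes of T and NK cells. The 8 B cell markers had array means of 6.84 to 7.36 in LT-HSC and 4.55 to 5.38 in GMP, beside Cxcr5, and 4.47 to 5.18 in CMP, which was no higher than GMP, with 4, 3 and 3 well above background on every array. The 7 dendritic cell markers had array means of 8.62 to 8.83 in MPP, 6.17 to 6.57 in GMP and 6.81 to 7.23 in MEP, beside Ccl3, Ccl4 and Cxcl9, with 5, 4 and 5 well above background on every array. Single arrays of CMP (8.17 to 8.89) and LT-HSC (7.27 to 8.96) passed the MPP arrays in these markers, and GMP, not MEP, was lowest, so the order differed from that of the 3 ligands. The 11 monocyte and macrophage markers were highest in ST-HSC (7.79 to 8.61) and lowest in MEP (5.30 to 5.61), the extremes also of Ccl2 and Ccl6, with 11 and 6 well above background on every array and 3 on no MEP array. Ccl3, Ccl4 and Ccl9 shared the low MEP. The 6 mast cell and basophil markers had array means of 9.87 to 10.60 in GMP and 4.78 to 5.90 in MEP, beside Ccl9 and Ccl24, with 5 and 2 well above background on every array. Red cell precursor markers had array means of 9.60 to 10.90 in MEP and 4.74 to 5.88 in GMP, the extremes of Ccr6. The extremes were 10.84 to 12.01 in LT-HSC and 8.65 to 9.60 in CMP for neutrophil markers, 10.34 to 11.32 in CMP and 6.88 to 7.69 in MPP for platelet and megakaryocyte markers, and 6.57 to 7.27 in CMP and 5.86 to 6.27 in GMP for stromal and endothelial markers. The part of such cells in these levels was not tested.

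The HSC subsets were compared with the myeloid populations, a contrast that the study drew for microRNAs. Higher in the HSC subsets were 7 of 17 receptors, Ccr9, Cxcr3 and Cxcr6 among them, and 14 of 35 ligands, in all 40.4% of members against 21.7% of all genes. Lower were 1 receptor, Cx3cr1, and 6 ligands, 13.5% of members against 19.1% (28 members in either direction, against 40.7%). Of the 7 lower, Ccl20, Cxcl11 and Cxcl17 were not well above background on any array, nor was Cxcl3 among the 21 higher. Without LT-HSC the calls of Cxcr6 (0.82 in place of 1.95, adjusted p = 0.107), Xcl1 (0.86 in place of 1.54, adjusted p = 0.193), Cxcl12 (0.95 in place of 1.29, adjusted p = 0.0553) and Ccl24 (-0.16 in place of -0.80, adjusted p = 0.645) were lost. The members' median difference was 0.48, where that of all genes was 0.04, and it was 0.13 with normexp background correction and 0.24 in the authors' table. The split moved with the scaling: with each array scaled to its 75th percentile, the members called were 26 higher and 1 lower, where 29.9% of all genes were higher and 12.8% lower, the median of all genes moved from 0.04 to 0.37, and that of the members to 0.86. In GMP the same scaling moved the median of all genes from -0.05 to -0.32 and that of the members from -0.30 to -0.69, with 5 members called higher and 13 lower, against 7.39% and 11.1% of all genes.

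Scanning run and sort went with this contrast, because the numbered HSC subset and myeloid arrays were scanned in different runs. With run as a block, 15 members were called, 14 higher and 1 lower, 13 of them shared with the 28 above, where 16.1% of all genes were called. The members that passed either way included Cx3cl1 (4.40 ± 0.45, adjusted p = 6.83e-06), Cxcl9 (3.79 ± 0.31, adjusted p = 1.19e-06), Ccl5 (2.84 ± 0.19, adjusted p = 1.97e-07), Cxcr3 (2.45 ± 0.19, adjusted p = 5.74e-07) and Ccr9 (2.00 ± 0.17, adjusted p = 1.30e-06). Within the run that held both kinds of array, 1 array a population and no LT-HSC, their differences were 4.95, 3.95, 2.14, 1.81 and 1.99. Cxcr6 also passed with the block (3.22, adjusted p = 0.00383) and was 1.92 within the run. Xcr1 (1.48 ± 0.24, adjusted p = 0.000266) lost its call with the block (0.46, adjusted p = 0.402) and was -0.004 within the run, so the higher Xcr1 of the HSC subsets lay in the arrays of a single run. Cx3cr1 (-2.42 ± 0.44, adjusted p = 0.000624) was -0.82 with the block (adjusted p = 0.39) and -0.02 within the run, which has no LT-HSC array. Ccr7, not called over all arrays (0.66, adjusted p = 0.269), was called with the block (2.28, adjusted p = 0.00543) and with each array scaled to its 75th percentile, and Cxcl10 was the other member gained with the block. Ccl2, Ccl3 and Ccl19 lost their calls with the block at smaller differences, 0.64, 1.13 and 1.26 in place of 1.18, 1.91 and 1.88 (adjusted p from 0.0639 to 0.414). The differences of Cxcl2, Ccl24 and Cxcl12 did not shrink with the block, at 1.34, -1.33 and 1.41 in place of 0.68, -0.80 and 1.29, but they too were no longer called (adjusted p from 0.0572 to 0.238). Cxcl2 also lost its call without any 1 of 8 arrays (adjusted p from 0.0517 to 0.101), and Ccl24 without the ST-HSC array of replicate 3 or the unnumbered LT-HSC or GMP array (adjusted p up to 0.103).

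**Figure D5:**
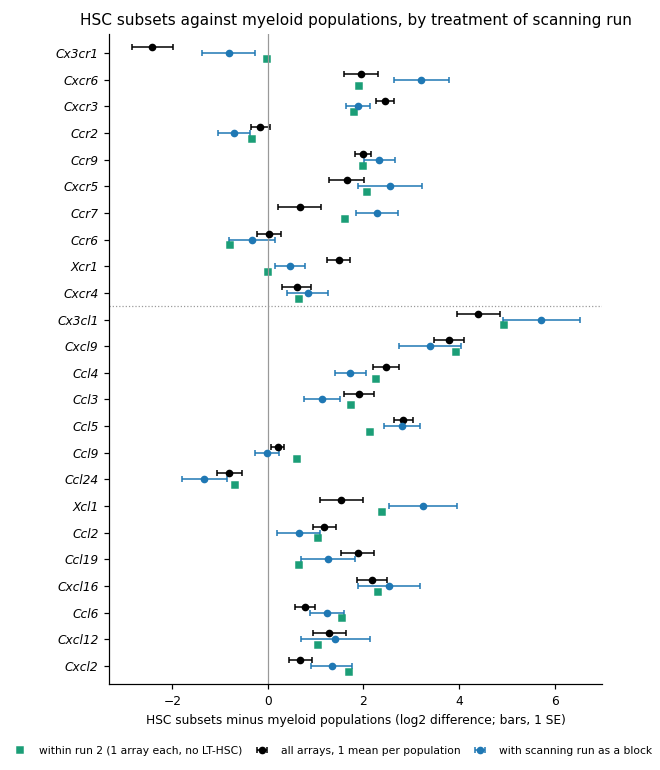
Points give the difference of the HSC subsets from the myeloid populations (log2) for the members described, from all arrays, with scanning run as a block, and within the run that holds both kinds of array. Bars are 1 SE, and there is none for the single run. Cx3cl1 and Cxcl9 were 4.95 and 3.95 within the run, while Xcr1 and Cx3cr1 were -0.004 and -0.02.

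The genes that carry or blunt the signal of these receptors were read from a list of 30, of which 29 were found by name (Prex1 was not analysed here). By the F-test 26 of the 29 differed over the populations, against 40.2% of all genes. Most of the 29 were well above background on all 17 arrays, as were only 39.1% of all genes. Of the 16796 genes well above background on every array of a population, the F-test called 10779 when only these were fitted. In MEP 20 of 29 were lower (69.0%, against 15.1% of all genes) and 3 were higher, Arrb1, Hmgb1 and Rgs10 (10.3%, against 15.8%). In MPP 8 were higher and 1 lower, against 10.2% and 6.72% of all genes, and in GMP 13 were higher and 6 lower, against 9.93% and 10.1%. In the HSC subsets 14 were higher than in the myeloid populations (48.3%, against 21.7%), while the 6 lower were 20.7%, near the 19.1% of all genes. Among the 16796 brighter genes, 25.9% were lower and 25.0% higher in MEP, and 33.4% were higher and 27.7% lower in the HSC subsets. In MPP 17.7% of these were higher and 12.4% lower, and in GMP 17.7% and 18.8%. Rgs1, which speeds the shutting off of Gi and so dampens chemokine receptors, was 14.64, 14.88 and 15.28 for MPP, 14.26, 14.81 and 14.84 for ST-HSC, 13.67 and 13.67 for LT-HSC, 12.80, 12.98 and 13.11 for CMP, 9.88, 10.63 and 10.63 for GMP, and 8.34, 8.49 and 9.22 for MEP. MPP was highest and MEP lowest, with MPP above the others by 2.87 ± 0.21 (adjusted p = 2.48e-06) and MEP different by -4.63 ± 0.21 (adjusted p = 7.21e-09). Rgs2, a related regulator, had the same extremes, 16.43 ± 0.20 in MPP and 10.68 ± 0.13 in MEP. In MEP, Gng2, a subunit of the G protein, differed by -3.69 ± 0.20 (adjusted p = 1.96e-08), and Elmo1, which with Dock2 activates Rac in moving cells, by -3.21 ± 0.25 (adjusted p = 4.84e-07). Cd74, a receptor for Mif that also serves antigen presentation, differed by 2.62 ± 0.35 in MPP (adjusted p = 0.000185) and -2.48 ± 0.35 in MEP (adjusted p = 9.27e-05), and Dpp4, the protease that trims Cxcl12, by 1.56 ± 0.17 and -1.92 ± 0.17 (adjusted p = 4.45e-05 and 1.57e-06).

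Decoy and atypical receptors that the naming rule left out did not all follow. Ccrl2, a chemerin-binding receptor that does not signal, was 9.75, 9.82 and 10.12 for MPP, 9.32, 9.62 and 9.78 for ST-HSC, 9.30 and 9.82 for LT-HSC, 8.14, 8.20 and 8.33 for GMP, 7.89, 8.29 and 8.33 for CMP, and 7.12, 7.29 and 7.31 for MEP. It was higher in MPP (1.34 ± 0.14, adjusted p = 3.24e-05), and the MEP arrays lay below the other 14 (-1.84 ± 0.14, adjusted p = 4.10e-07). Darc, the chemokine-binding Duffy antigen of red cells, was 6.74, 6.99 and 7.63 for MEP, 4.57, 6.02 and 6.50 for ST-HSC, 4.45, 6.17 and 6.34 for MPP, 4.78 and 6.21 for LT-HSC, 4.58, 4.61 and 4.85 for CMP, and 3.51, 4.14 and 4.39 for GMP. It ran the other way, higher in MEP (2.01 ± 0.44, adjusted p = 0.00323) and lower in GMP (-1.72 ± 0.44, adjusted p = 0.0145). With Ccr6, it was a chemokine-binding protein whose RNA was higher in MEP.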

How the data were processed

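RNA of the sorted populations was hybridized to 17 1-colour Agilent 4×44k arrays. The authors deposited each array's scanner output, with a linear intensity per spot (processed signal) from Agilent Feature Extraction 9.5.3.1 (6 arrays) or 10.2.1.3 (11 arrays, per the file headers), and a table of log2 values that the authors quantile-normalized between arrays (column medians 6.40 to 6.42, background correction not stated in the sources used here), used as an alternative. Here, log2 processed signals were quantile-normalized over all spots, control spots (1639 an array) and outlier-flagged spots were left out, and spots of a probe were averaged, giving 41174 probes and 28090 genes. The scanner files pair probes with gene names and mm9 positions.

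Fits over all genes used limma 3.58.1 in R 4.3.3 with 1 term per population, all 17 arrays and Benjamini-Hochberg adjustment over all genes. The 15 pairs of populations were tested in the same fit, each adjusted on its own. Values on every array were given for up to 10 receptors and 14 ligands with the widest range of population means among those measured on every array of a population, and for Cxcr4, Ccr2, Ccr7, Ccr9, Cx3cr1, Cxcl12 and Il8rb whatever their values. The values of 1 receptor are not reported here; it is counted among the members. The members and lists were chosen with earlier results of these data known. Alternatives were another normalization, background correction and filter, blocks for run, slide and replicate number, averaging the probes of a gene, and leaving out each array. The fitting script was tested on simulated data. The number of arrays, 2 or 3 a population, limits the precision.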

Additional observations from a re-analysis of the deposited data

How the results depend on the processing

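The number of members called moved by over 1.5 times in 4 cases. With scanning run as a block, the HSC subsets differed from the myeloid populations in 15 members (28.8%, against 16.1% of all genes), not 28 (53.8%, against 40.7%). In MPP, 13 members were called in the full fit (25.0%, against 16.9% of all genes), 22 with a replicate block over the 10 numbered arrays, which hold no LT-HSC (42.3%, against 38.4%), and 20 on those arrays without the block (38.5%, against 40.9%), a setting chosen after seeing the data. On the numbered arrays the members' share in MPP was thus near that of all genes. For the HSC subsets it was below it, 44.2% against 46.4% with the replicate block and 51.9% against 56.5% without. In GMP the shares were 40.4% against 28.9% with the block and 34.6% against 29.0% without. In MEP they were 46.2% against 40.2% and 40.4% against 41.2%. Leaving out 1 array at a time gave 27 to 30 members for the F-test, 24 to 27 for the HSC subsets, 7 to 15 for MPP, 14 to 19 for GMP and 17 to 21 for MEP. Of all 28090 genes, these fits called 9862 to 13023, 9890 to 12462, 2644 to 5974, 3560 to 6407 and 6861 to 9396, in the same order. The lowest count for MPP came without its replicate 2. The direction reversed for Cxcr6 in the HSC subsets with the replicate block (-0.50), and for Ccl24 with the replicate block (0.15) and on the numbered arrays alone (0.10), where LT-HSC was absent. The cause was not tested. Of 63 calls of the genes chosen by the rule, 51 held with each array left out and 37 under every alternative tried. Within a sort, same-numbered arrays had correlations of 0.131 to 0.531, over 0.1 in every pair, as had some arrays of different numbers (ST-HSC 2 and MPP 3, 0.335), while across sorts same-numbered arrays had -0.0662 to 0.0208. Among the myeloid arrays number went with slide, so the 2 cannot be told apart. The lowest same-numbered value there, 0.131 for GMP 1 and MEP 1, was below the 0.147 of GMP 1 and CMP 2. Across the sorts that the comparisons span, only number 2 was shared, by arrays scanned in different runs. Whether equal numbers mark paired samples was thus not settled by these values. A random block for the number within a sort, also chosen after seeing the data, gave 22 members for the HSC subsets (42.3%, against 26.7% of all genes). It gave 15 for MPP (28.8%, against 18.2%), 22 for GMP (42.3%, against 25.7%) and 21 for MEP (40.4%, near the 37.6% of all genes). Of the calls of the genes chosen by the rule, that of Cxcl12 in the HSC subsets was lost (adjusted p = 0.119). LT-HSC has 2 arrays, 1 of them dim, on a slide of their own, and signals near background limit Cx3cr1, Ccl24 and Xcl1.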
